A study of Nannospalax ehrenbergi and Mus musculus with 25 samples.

Results

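The 10 genes described here encode proteins that make, fold and trim procollagen: the transcription factor Creb3l1, the chaperone Serpinh1, the prolyl 4-hydroxylase subunits P4ha1, P4ha2 and P4ha3, the lysyl hydroxylases Plod1, Plod2 and Plod3, and the procollagen C-proteinase Bmp1 with its enhancer Pcolce. They were taken by name, with earlier results of these data known and no rule on their values, from 27988 genes measured in the blind mole rat Spalax and 47593 in the house mouse, and all 10 were found in both tables. RNA-seq was done on neck tissue of 25 libraries to ask how muscle and tumors of the tumor-resistant Spalax differ from those of mouse after the carcinogen 3-methylcholanthrene (3MCA).

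In Spalax, a wild-caught subterranean rodent with ages from about 2 years to 10 years or more, 4 control libraries came from untreated females. Another 4 came from animals given a single subcutaneous injection of 1 mg 3MCA that grew no tumor (tolerant; 3 males and 1 female, injected side, 18 or 30 months after injection). The remaining 8 came from 4 injected animals with a tumor, each giving the injected side (IS), which is the tumor, and the uninjected side (UIS). Granuloma, a benign spindle-cell growth, was found in females 600 and 976 at 14 and 16 months, and fibrosarcoma in female 2240 at 18 months and male 2230 at 30 months. In C57BL/6 mice 3 to 4 months old, 3 control libraries came from untreated males. Another 3 males given 200 µg 3MCA gave fibrosarcoma IS and UIS at 11 to 14 weeks. Control and tolerant libraries carried dual sequencing indexes and all libraries of tumor-bearing animals single ones, so index and tumor-bearing state cannot be told apart where these are compared.

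Fibrillar collagen is made in the endoplasmic reticulum as procollagen. Prolyl 4-hydroxylases add the hydroxyl groups that keep the collagen helix stable at body temperature, and lysyl hydroxylases modify the lysines that later form crosslinks. Serpinh1 (Hsp47) binds the folded helix on its way out of the endoplasmic reticulum. Outside the cell, Bmp1 removes the C-terminal propeptide so that fibrils can form, and Pcolce speeds that cut. Creb3l1 (Oasis) is held in the endoplasmic reticulum membrane until it is cleaved, and then acts in the nucleus on collagen and secretory genes. Resting muscle makes little collagen, most of it in fibroblasts.

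The libraries held 17025447 to 23386729 reads in Spalax and 22143060 to 31179183 in mouse. Values are normalized counts, that is reads divided by the authors' size factor of the library, with 1 read worth 0.5997 to 1.422 in Spalax and 0.5169 to 1.44 in mouse. The summed level of the myofiber markers found (7 of 10 in the Spalax table, 10 of 10 in mouse) was 916261 to 2869543 in the Spalax muscle libraries and 189 to 3774 in the tumors. In mouse it was 1139427 to 4609128 in muscle and 206 to 71323 in the tumors, so the labelled muscle held muscle transcripts and the tumors few. Tolerant library 2251 stood apart among muscle libraries, with a summed fibrillar collagen level of 149569 against 2311 to 20519 in the other tolerant and control libraries. Granuloma UIS 976 stood apart in the members themselves. For some of the differences that leaving out either library moved most, the value without that library is given beside them.

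**Figure D1:**
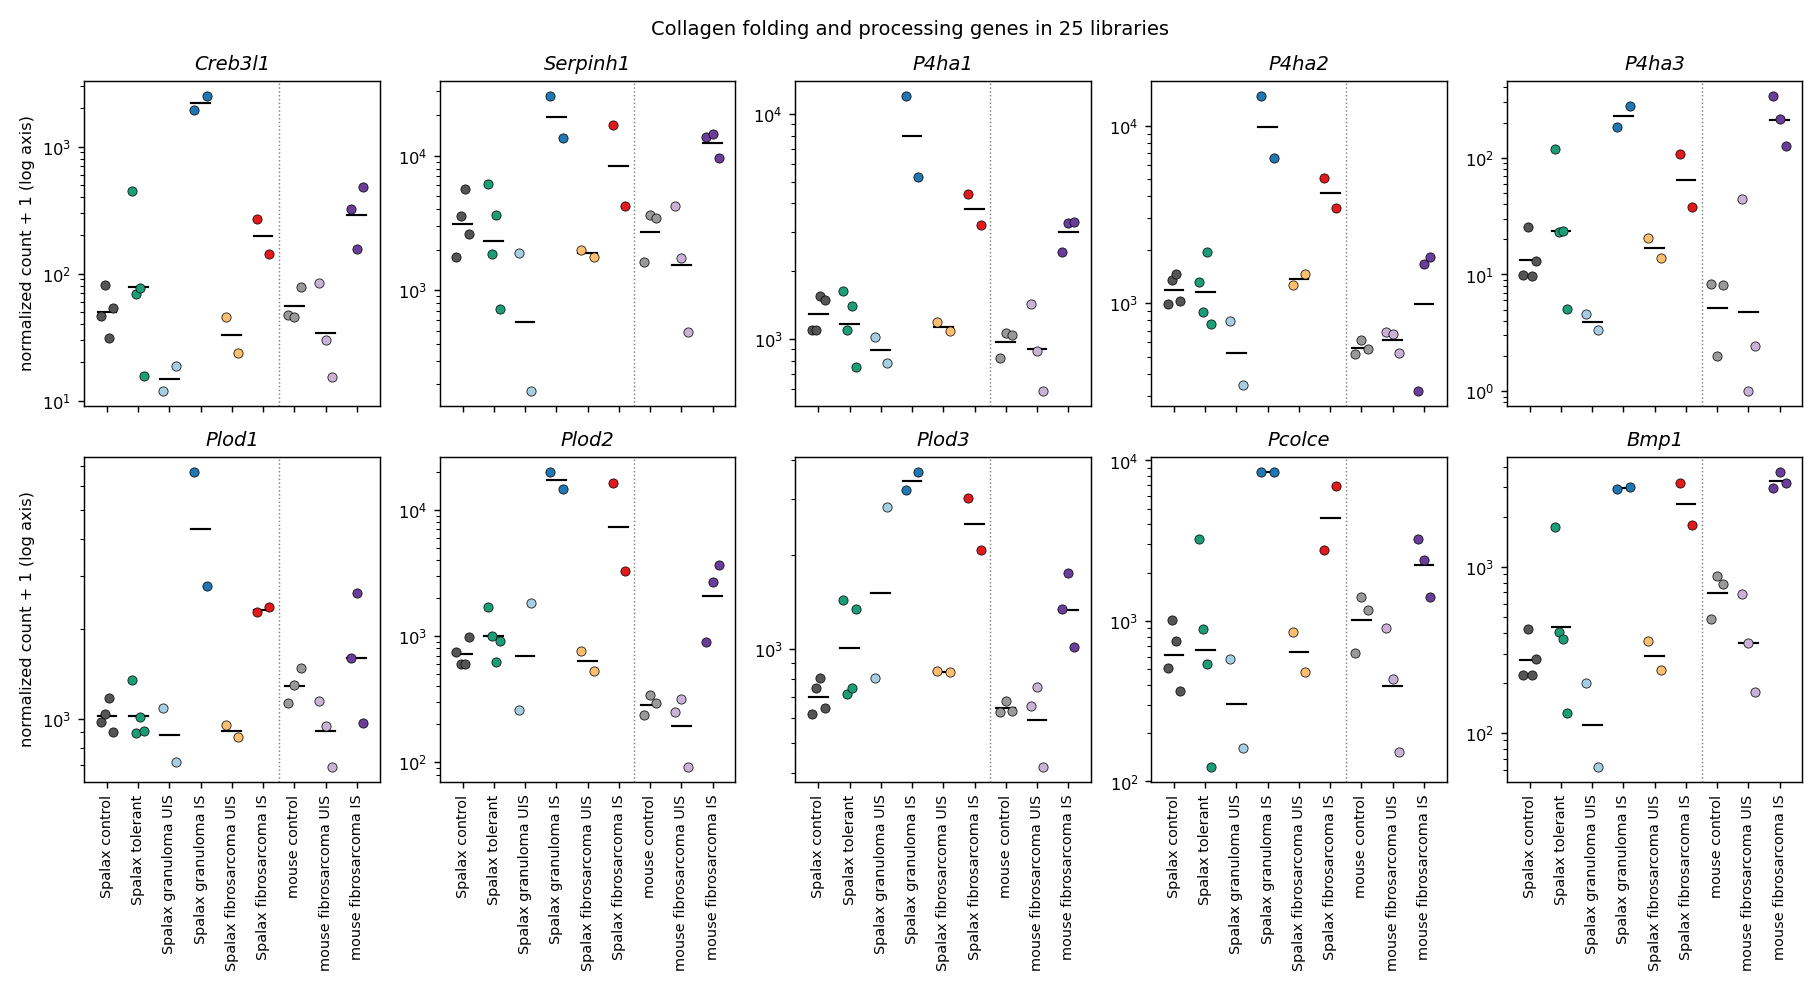
Normalized count plus 1 (log axis) of each member in every library, by group, with the geometric mean as a bar and Spalax left of the dotted line. Granuloma IS lies above granuloma UIS in all 10 panels, and Creb3l1 is at 1930.1 and 2509.9 in granuloma IS against 142 and 267 in fibrosarcoma IS.

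Tumor and uninjected tissue of the same animals were compared first, by limma on log2(normalized count + 1), and a gene is called where its p, adjusted over all genes tested by the Benjamini-Hochberg method, was at most 0.05. Members rose in the tumors of both species and none fell. In granuloma IS, 9 of the 10 were called higher than in UIS, where 11.7% of all 14735 genes tested were. In Spalax fibrosarcoma it was 8 of 10, against 17.4% of 14696 genes, and in mouse fibrosarcoma 8 of 10, against 22.8% of 15220 genes. The members not called were Plod3 in granuloma, Serpinh1 and P4ha3 in Spalax fibrosarcoma, and P4ha2 and Plod1 in mouse. IS and UIS libraries did not overlap for all 10 members in granuloma (35.0% of all genes lay higher without overlap), all 10 in Spalax fibrosarcoma (37.9%) and 8 in mouse (31.1%).

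The median log2 fold change of the members was 4.68 in granuloma, 2.05 in Spalax fibrosarcoma and 2.76 in mouse, and the medians of all genes tested were -0.01, 0.03 and 0.11. Scaling by total reads in place of the authors' size factors moved these all-gene medians to 0.72, 0.83 and 1.16. It also raised the called genes that were higher from 1718 of 3581 to 3370 of 4496 in granuloma, from 2550 of 5339 to 5175 of 6840 in Spalax fibrosarcoma and from 3469 of 6870 to 7559 of 9234 in mouse. No member changed direction in these comparisons under any setting tried. With 2 libraries a group the calls rest on each of them. Member calls were lost in granuloma without IS 600 or IS 976, and in Spalax fibrosarcoma without UIS 2240 or UIS 2230. Most or all calls over all genes were lost there too. In mouse 4 members were called without IS 1019, where 2181 of all genes were called higher. The counts were 4 without IS 1023 (1884 of all genes higher) and 5 without UIS 1023 (2194).

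**Figure D2:**
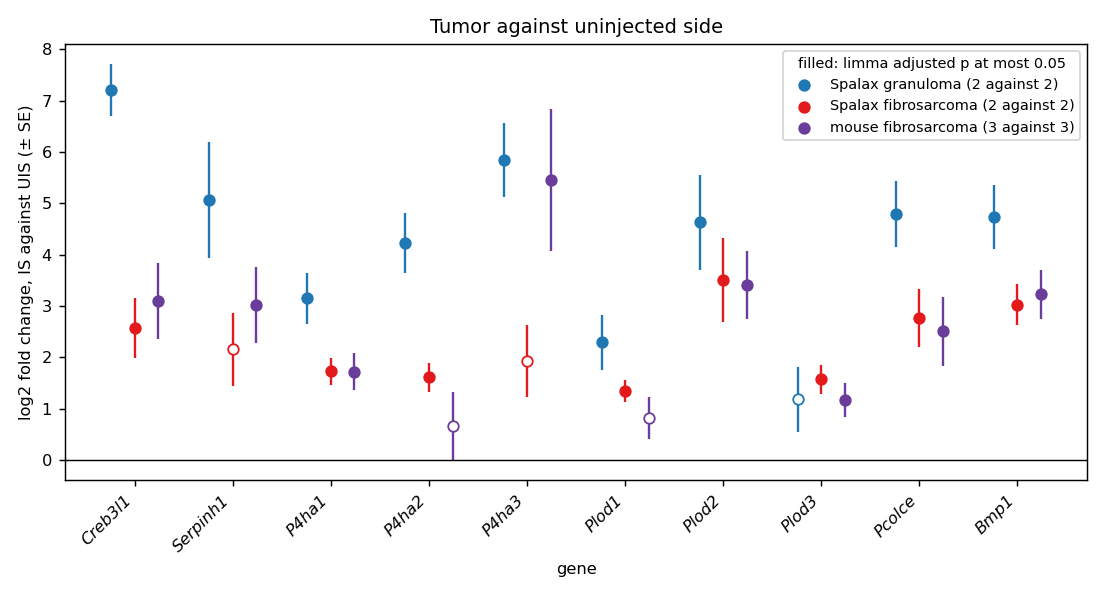
Log2 fold change of IS against UIS (± SE) for each member in Spalax granuloma (2 against 2 libraries), Spalax fibrosarcoma (2 against 2) and mouse fibrosarcoma (3 against 3), with filled points where the limma adjusted p was at most 0.05. All 30 points lie above 0, with the largest at 7.21 for Creb3l1 in granuloma and the smallest at 0.66 for P4ha2 in mouse.

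Tissue composition moved with these differences. The fibroblast marker list summed to 92562 and 105294 in granuloma IS against 12509 to 18170 in UIS, with 5 of 8 genes tested called higher and 0 lower. In Spalax fibrosarcoma the sums were 18237 to 79606 in IS and 26009 to 33814 in UIS, with 0 of 8 called, and in mouse 7746 to 53474 against 4859 to 12444, with 3 of 9 called higher. Tcf21 was at 0 in all these UIS libraries and in the mouse IS libraries. The macrophage list had 6 of 8, 5 of 8 and 4 of 9 genes called higher, and the proliferation list 5 of 6, 6 of 6 and 6 of 6. Of the osteoblast and chondrocyte markers 2 of 5, 2 of 4 and 2 of 2 tested rose, and of the endothelial markers 0, 4 and 1 of 6 fell. Of the smooth muscle markers 2, 3 and 3 of 6 fell, and of the adipocyte markers 0 of 1, 3 of 3 and 3 of 3. The largest fall in the smooth muscle list was that of Des (-7.77, -6.70 and -6.30), against list medians of -0.81, -2.13 and -1.12. The myofiber list fell by medians of -10.19, -13.17 and -8.91. Whether the Des falls came from smooth muscle or from myofibers was not tested. Lymphocyte markers were called in Spalax fibrosarcoma only, with 3 of 4 higher and 1 lower. Fewer myofibers, more matrix-making cells and more RNA per cell cannot be told apart in bulk tissue, and the part of cell composition in the members' differences was not tested.

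Creb3l1, the transcription factor, showed the largest difference in granuloma. In mouse it lies on chromosome 2 (91982328 to 92024502, minus strand, GRCm38). It was at 29.9, 45.3, 52.7 and 80.0 normalized counts in Spalax control and at 14.7, 67.9, 75.4 and 447 in tolerant, the last being library 2251. In granuloma UIS it was at 10.9 (animal 600) and 17.7 (976), which are 9 and 15 reads. The tumors of these animals were at 1930.1 and 2509.9, above every other Spalax library. In fibrosarcoma UIS it was at 22.7 (2230) and 44.9 (2240) and in IS at 142 and 267, below tolerant 2251. Mouse control held 44.2, 46.4 and 77.3, UIS 14.4, 28.9 and 83.4, and IS 155, 322 and 483.

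Creb3l1 thus rose 148-fold in granuloma (log2 fold change 7.21, SE 0.51, adjusted p 0.00492), 5.94-fold in Spalax fibrosarcoma (2.57, SE 0.59, adjusted p 0.0324, and 0.0648 in 1 model over all libraries) and 8.56-fold in mouse fibrosarcoma (3.10, SE 0.74, adjusted p 0.0168). Control, tolerant and pooled UIS muscle overlapped in Spalax, and so did both mouse muscle groups. Granuloma UIS by itself, at 10.9 and 17.7, lay below every control and fibrosarcoma UIS library. The 148-fold rise is measured from that low level. In the order of Spalax levels, granuloma IS stood first and fibrosarcoma IS next, with muscle last apart from library 2251.

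The Creb3 relatives and the proteases that cleave such factors moved less. Of the 6 listed genes 5 were tested in each comparison, and 0 were called in granuloma. In Spalax fibrosarcoma 1 was called higher, Creb3l2 with a log2 fold change of 1.21, and 2 lower, the larger fall being that of Creb3l3 at -2.31. In mouse 3 were higher, led by Creb3l2 at 2.14. The log2 ratio of Creb3l1 to Creb3l2 rose from -4.56 (976) and -4.29 (600) on the uninjected side of granuloma animals to 1.79 (976) and 1.61 (600) in their tumors. In fibrosarcoma it went from -2.85 and -2.04 to -1.54 and -0.64. Over the 4 tumor-bearing Spalax it averaged 0.31 ± 1.65 (SD) in IS and -3.44 ± 1.19 in UIS, a difference of 3.74 (exact two-sided permutation p = 0.0286, the smallest that 4 against 4 unpaired libraries allow, adjusted p = 0.2 over 7 ratios). The permutation did not keep IS and UIS of an animal together as a pair. In mouse the difference was 0.96 (exact permutation p = 0.5, where 3 against 3 cannot go below 0.1).

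Serpinh1, the collagen chaperone, lies on mouse chromosome 7 (99345376 to 99353239, minus strand). It was at 1751, 2613, 3550.5 and 5657 in Spalax control, and at 724, 1854, 3627 and 6133 in tolerant, again highest in 2251. Granuloma UIS held 1886 in animal 600 and only 177 in animal 976, and IS held 27806 and 13427. In fibrosarcoma the UIS libraries were at 1769 (2230) and 1991 (2240) and the IS libraries at 4190.0 and 16903. The IS library of male 2230 lay below Spalax control library 2095 and tolerant library 2251. In mouse it was at 1618 to 3632 in control, at 489, 1746 and 4196 in UIS and at 9593, 13821 and 14361 in IS.

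Serpinh1 rose in granuloma with a log2 fold change of 5.06 (SE 1.13, adjusted p 0.0325), and in mouse with 3.02 (SE 0.74, adjusted p 0.0182). The granuloma call was lost with edgeR (4.34, adjusted p 0.0707) and without UIS 976 (3.36, adjusted p 0.0626), while without UIS 600 the value was 6.77. In Spalax fibrosarcoma the log2 difference was 2.16 (SE 0.71, adjusted p 0.0738). It passed with the animal as a replicate block (adjusted p 0.034), with DESeq2 (0.00194) and with total-read scaling (0.0274), which raises all genes. It did not with edgeR (0.0593), a pseudocount of 0.1 or 10 (0.0803 and 0.0729), no filter (0.106) or 1 model over all libraries (0.118).

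The fibrillar collagens, the substrate of Serpinh1, were followed beside it. All 5 fibrillar collagen genes were called higher in granuloma (median log2 fold change 8.23, Col1a1 leading with 9.15), 3 of 5 in Spalax fibrosarcoma (median 3.78, Col1a1 4.67) and 5 of 5 in mouse (median 5.47, Col1a1 5.64). The log2 ratio of Serpinh1 to the mean of these 5 genes was -3.06 and -3.15 in granuloma IS, against 0.89 and -1.68 in UIS. It was -3.58 in fibrosarcoma IS 2230 but 0.06 in IS 2240, so both fibrosarcomas lay at opposite ends of the Spalax tumors. The mean difference of IS from UIS was -2.19 in Spalax (exact two-sided permutation p = 0.0857, adjusted p = 0.2) and -2.12 in mouse (exact permutation p = 0.1, adjusted p = 0.233), neither of which passed.

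**Figure D3:**
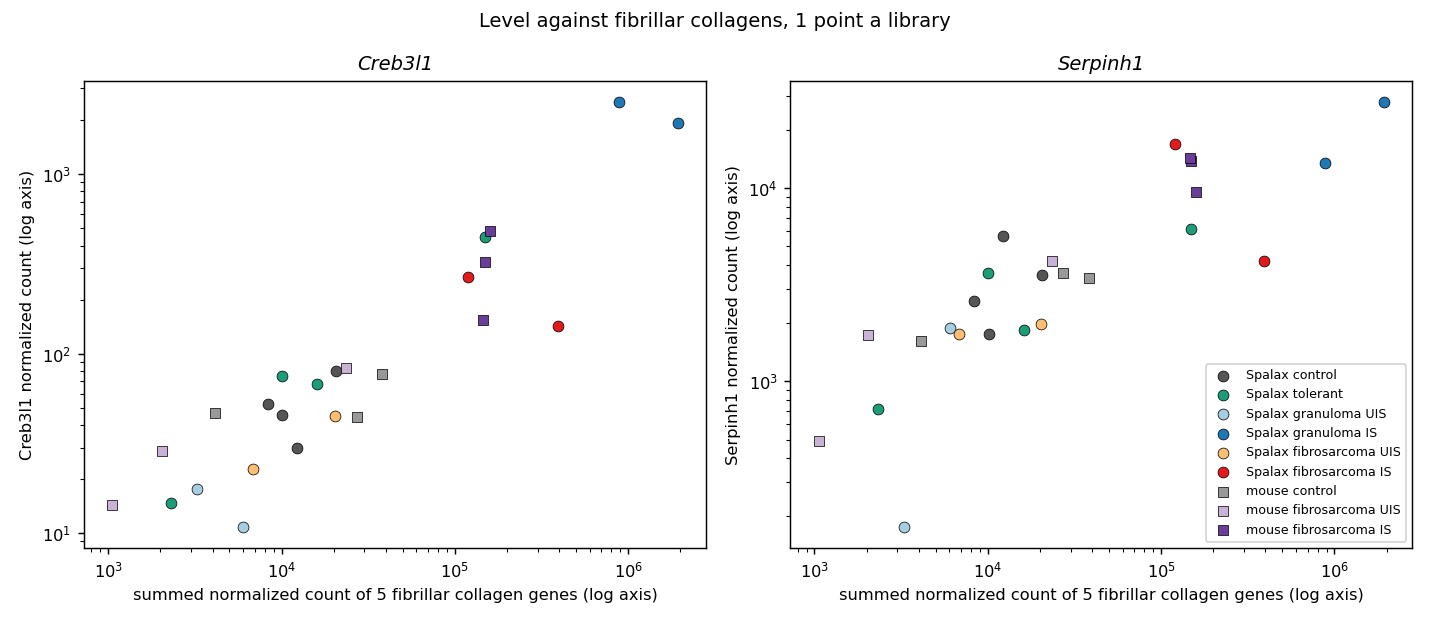
Normalized count of Creb3l1 (left) and Serpinh1 (right) against the summed normalized count of 5 fibrillar collagen genes in the same library, both axes on a log scale, circles for Spalax and squares for mouse, whose tables were scaled separately. Tolerant library 2251, at a collagen sum of 149569, lies between the 2 Spalax fibrosarcomas (119690 and 392255), and the granulomas lie furthest right at 883880 and 1935398.

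The catalytic subunits of prolyl 4-hydroxylase differed in level and in how they moved. P4ha1, the most widely expressed subunit, lies on mouse chromosome 10 (59323296 to 59373304, plus strand). It was at 748 to 1629.8 in all 8 Spalax control and tolerant libraries and at 778 to 1194 in the UIS libraries. Granuloma IS held 12026 (600) and 5246 (976) and fibrosarcoma IS 4396 (2240) and 3217 (2230). In mouse it was at 586 to 1431 in the 6 muscle libraries and at 2441, 3284 and 3302 in IS. P4ha1 rose in all 3 tumor comparisons, with log2 fold changes of 3.15 (SE 0.49, adjusted p 0.0149), 1.73 (SE 0.26, adjusted p 0.0122) and 1.72 (SE 0.36, adjusted p 0.0108) in granuloma, Spalax fibrosarcoma and mouse.

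P4ha2, an alternative catalytic subunit prominent in cartilage and bone cells, lies on mouse chromosome 11 (54100095 to 54131665, plus strand). In Spalax it rose in both tumors, as P4ha1 did. Granuloma UIS held 789 and 346 and IS 14723 and 6547, and fibrosarcoma UIS 1466 and 1271 against 3434 and 5068 in IS (2230 and 2240). The log2 fold changes were 4.23 (SE 0.59, adjusted p 0.0119) and 1.61 (SE 0.29, adjusted p 0.0177), the former being 3.64 without UIS 976 (adjusted p 0.0603). In mouse the groups overlapped: UIS lay at 521, 668 and 690.5, and IS at 1807 (512), 1660.2 (1023) and 318 (1019). The tumor of mouse 1019 was thus the lowest of all 9 mouse libraries for P4ha2, although the other prolyl 4-hydroxylase subunits were at 2441 and 339 there, above all UIS libraries. The log2 difference in mouse was 0.66 (SE 0.67, adjusted p 0.45), and without IS 1019 it was 1.48 (adjusted p 0.016). The log2 ratio of P4ha2 to P4ha1 differed by 0.48 between IS and UIS in Spalax (exact permutation p = 0.286) and by -1.05 in mouse (exact permutation p = 0.3).

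P4ha3, the least expressed subunit, lies on mouse chromosome 7 (100285520 to 100319699, plus strand). Its muscle values rest on few reads. It was at 8.73 to 24.3 in Spalax control, at 4.02, 21.9, 22.5 and 118 (2251) in tolerant, and at 3.62 and 2.36 in granuloma UIS, which are 3 and 2 reads. Granuloma IS held 183 and 277. Fibrosarcoma UIS was at 12.8 (2230) and 19.4 (2240) and IS at 37.2 and 106. In mouse UIS it was at 43.5 (1019), 1.44 (512) and 0 (1023), where no read allows a level of up to 3.09. The mouse tumors held 339 (1019), 216 (1023) and 125 (512), all above the muscle libraries.

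P4ha3 rose in granuloma by 5.84 on the log2 scale (SE 0.72, adjusted p 0.00927), or by 4.18 with a pseudocount of 10 and 6.22 with 0.1. In mouse it rose by 5.46 (SE 1.38, adjusted p 0.0199), or by 3.59 with a pseudocount of 10 and 6.79 with 0.1. There edgeR gave 3.87 with an adjusted p of 0.0729, and without UIS 1023 the value was 4.33 (adjusted p 0.0531). In Spalax fibrosarcoma the difference was 1.93 (SE 0.70, adjusted p 0.0943), with edgeR at an adjusted p of 0.0851 and DESeq2 at 0.0557.

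Among the lysyl hydroxylases, Plod2 moved most. Plod2, which hydroxylates the telopeptide lysines that start stable crosslinks, lies on mouse chromosome 9 (92542223 to 92608428, plus strand). It was at 599 to 984 in Spalax control and at 625 to 1705 in tolerant. Granuloma UIS held 259 (600) and 1835 (976), and IS 20038 and 14666. Fibrosarcoma UIS held 532 (2230) and 759 (2240), and IS 3257 and 16233, so that the tumor of female 2240 reached the granulomas and that of male 2230 did not. In mouse it was at 90.7 to 342 in muscle and at 899 (1019), 2672 (1023) and 3635 (512) in IS. The log2 fold changes were 4.63 (SE 0.93, adjusted p 0.0253), 3.51 (SE 0.82, adjusted p 0.0331) and 3.41 (SE 0.67, adjusted p 0.009) in granuloma, Spalax fibrosarcoma and mouse. In granuloma the Plod2 value was 6.04 without UIS 976 and 3.22 without UIS 600. In Spalax fibrosarcoma it was 2.36 without IS 2240 and 4.67 without IS 2230, and the call was lost with no filter (adjusted p 0.0533).

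Plod1, which acts on lysines of the helix, lies on mouse chromosome 4 (147909753 to 147936767, minus strand) and rose less. It stayed between 716 and 1347 in all 12 Spalax muscle libraries, and was at 6713 (600) and 2786 (976) in granuloma IS and at 2278 and 2359.7 in fibrosarcoma IS. The log2 fold changes were 2.29 (SE 0.53, adjusted p 0.0346, and 0.051 with no filter) and 1.35 (SE 0.21, adjusted p 0.0136). In mouse, IS held 970.1 (512), 1595 (1019) and 2638 (1023) and UIS 688 to 1146, a log2 difference of 0.82 (SE 0.41, adjusted p 0.145), and the groups overlapped.

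Plod3, which also adds sugars to hydroxylysine, lies on mouse chromosome 5 (136987019 to 136996648, plus strand). It was at 617 to 803 in Spalax control and at 715, 748, 1339 and 1429 in tolerant. Granuloma UIS held 803 (600) and 2837 (976), the latter near granuloma IS at 3205 and 3678. The log2 difference in granuloma was 1.18 (SE 0.64, adjusted p 0.22). It was 2.09 without UIS 976 and 0.28 without UIS 600. Plod3 rose in Spalax fibrosarcoma, from 839 and 849 to 2065 and 3037 (log2 fold change 1.57, SE 0.28, adjusted p 0.0175), and in mouse from 417 to 754 to 1012 to 1749 (1.17, SE 0.33, adjusted p 0.0271). In the mouse annotation 11.7% of its exon bases lie under exons of Znhit1 on the other strand, and 6.42% of those of Plod2 under Gm38391. The strand setting of the counting is not given in the sources used here, so reads of such overlaps cannot be assigned.

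The log2 ratio of Plod2 to Plod1 was 1.82 ± 1.04 (SD, n = 4) in Spalax IS and -0.44 ± 1.41 in UIS, a difference of 2.25 (exact two-sided permutation p = 0.0571, adjusted p = 0.2). In mouse it was 0.37 ± 1.40 (SD, n = 3) against -2.23 ± 0.67, with every IS library above every UIS library (difference 2.59, exact permutation p = 0.1, adjusted p = 0.233). The ratio of Plod3 to Plod1 differed by -0.44 in Spalax (exact permutation p = 0.543) and 0.35 in mouse (exact permutation p = 0.2). No ratio passed after adjustment.

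The trimming pair rose together in all 3 tumor comparisons. Bmp1, the proteinase, lies on mouse chromosome 14 (70474558 to 70520234, minus strand). It was at 221 to 423 in Spalax control and at 131, 368, 405 and 1740.1 (2251) in tolerant. Granuloma UIS held 199 (600) and 61.2 (976) and IS 2925 and 3020.4. Fibrosarcoma UIS held 239 (2230) and 354 (2240) and IS 1778 and 3208. Mouse muscle held 176 to 876 and IS 2973, 3172 and 3727, the narrowest range of any member in the mouse tumors relative to its level. The log2 fold changes were 4.74 (SE 0.62, adjusted p 0.0103), 3.03 (SE 0.40, adjusted p 0.00946) and 3.23 (SE 0.48, adjusted p 0.00406). In granuloma the Bmp1 value was 3.89 without UIS 976 and 5.58 without UIS 600.

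Pcolce, the enhancer, lies on mouse chromosome 5 (137605103 to 137613784, minus strand), with 2.93% of its exon bases under other genes on each strand. It was at 364 to 1010.3 in Spalax control and at 122, 537, 886 and 3260.3 (2251) in tolerant. Granuloma UIS held 575 and 161 and IS 8510.0 and 8468. In fibrosarcoma, male 2230 went from 478 in UIS to 6899.9 in IS and female 2240 from 852 to 2769. The order of both tumors was thus the reverse of that of Plod2, Serpinh1 and Bmp1. In mouse, UIS held 153, 432 and 899.7 and IS 1411 (512), 2406 (1023) and 3234 (1019). Control M2 at 1401 lay next to IS 512. The log2 fold changes were 4.79 (SE 0.64, adjusted p 0.0107), 2.77 (SE 0.56, adjusted p 0.0237, and 0.0537 in 1 model over all libraries) and 2.51 (SE 0.67, adjusted p 0.0232). In granuloma the Pcolce value was 3.88 without UIS 976 and 5.71 without UIS 600. The ratio of Pcolce to Bmp1 differed between IS and UIS by -0.10 on the log2 scale in Spalax (exact permutation p = 0.971) and -0.73 in mouse (exact permutation p = 0.2).

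In mouse, where exon lengths were known, levels could be set side by side per kilobase of exon. Serpinh1 was highest in the tumors with a median of 5657 normalized counts per kilobase, followed by P4ha1 at 798, Pcolce at 629, Plod2 at 496, Bmp1 at 358, Plod3 at 295, P4ha2 at 266 and Plod1 at 236. Creb3l1 at 124 and P4ha3 at 68.9 were lowest. Serpinh1 lay apart from the rest, and all other neighbors in this order had overlapping ranges over the 3 tumors. In mouse control, Serpinh1 also led (1405) and P4ha3 was last (2.26), while Plod2 at 54.1 was below Plod1 at 191, the reverse of their order in the tumors.

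Other genes of the collagen pathway were followed as lists. Of 12 folding partners, all tested, 7 rose and 1 fell in granuloma, 5 rose and 2 fell in Spalax fibrosarcoma, and 7 rose and 2 fell in mouse. Fkbp10, a prolyl isomerase that partners Plod2, led with log2 fold changes of 7.14, 3.81 and 4.04, and Tmem38b, an ion channel of the endoplasmic reticulum, fell most, with -4.06, -5.35 and -3.53. Of 11 genes of procollagen export tested, 2 rose and 1 fell in granuloma, 3 and 1 in Spalax fibrosarcoma, and 2 and 3 in mouse. The largest rises were those of Sec23b (2.62 and 2.01) in Spalax and Sec24d (3.51) in mouse, both coat proteins of export vesicles. Sar1b, the small GTPase of that coat, fell most in each, with -3.72, -4.10 and -4.79. Tmem38b and Sar1b thus moved against the members, and myofiber markers fell with them, by medians of -10.19, -13.17 and -8.91.

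Of the other procollagen proteinases and enhancers, 3 of 7 tested rose and 1 fell in granuloma (Adamts14 7.18, Furin -1.47), 2 of 7 rose in Spalax fibrosarcoma (Adamts3 4.92) and 3 of 6 rose in mouse (Adamts14 5.57). Of 5 crosslinking oxidases, 3, 3 and 4 rose, led by Lox in Spalax (6.84 and 4.88) and Loxl3 in mouse (4.94).

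Granuloma and fibrosarcoma were then compared with each other, tumor against tumor. The granulomas were taken at 14 and 16 months and the fibrosarcomas at 18 and 30, and the only male was fibrosarcoma animal 2230. Tumor kind and time since injection therefore cannot be told apart, here or in the interaction. All 10 members were lower in fibrosarcoma IS than in granuloma IS, by 0.32 to 3.49 on the log2 scale (median -1.14, all genes 0.03), but limma called 0 members and 0% of 14562 genes. At an unadjusted p under 0.05 there were 2 of 10 members, Creb3l1 and P4ha3, where 2.38% of all genes were lower at that level. The libraries did not overlap for 7 of 10 members, against 14.7% of all genes lower without overlap. The exceptions were Serpinh1, Plod2 and Bmp1, for which fibrosarcoma 2240 reached the granulomas. Without fibrosarcoma IS 2230 the Bmp1 difference was 0.11. Creb3l1 was 11.2-fold lower (log2 difference -3.49, SE 0.43, limma p 0.000572, adjusted p 0.951). DESeq2 on the recovered reads called it (-3.47, adjusted p 2.58e-07) as 1 of 153 genes, while edgeR called 0 genes. Fibrillar collagens differed by a median of -2.50 and fibroblast markers by -1.23, with 0 called in either list, and their part in the Creb3l1 value was not tested.

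The change from UIS to IS was likewise smaller in fibrosarcoma than in granuloma for 9 of 10 members, Plod3 being the exception at 0.38. The interaction called 0 members and 0% of 15584 genes by limma. At an unadjusted p under 0.05 stood 4 of 10 members, against 3.16% of genes with a negative difference. These were Creb3l1 at -4.64 (SE 0.79, limma p 0.000545, adjusted p 0.642), P4ha3 at -3.91, P4ha2 at -2.62 and P4ha1 at -1.43. DESeq2 called Creb3l1 (-4.74, adjusted p 1.57e-05) as 1 of 88 genes, and edgeR called 0 genes. In the UIS libraries of the same animals, 8 of 10 members were higher in fibrosarcoma than in granuloma, by up to 2.09 for P4ha3, with 0 members and 0% of 14091 genes called by limma and 2 members, P4ha2 and P4ha3, at an unadjusted p under 0.05, where 2.29% of all genes were higher at that level. There edgeR called 0 genes and DESeq2 0 members among 129 genes. That comparison turned on granuloma UIS: without UIS 600 limma called 7 members and 5215 genes, and without UIS 976 it called 1 and 363.

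**Figure D4:**
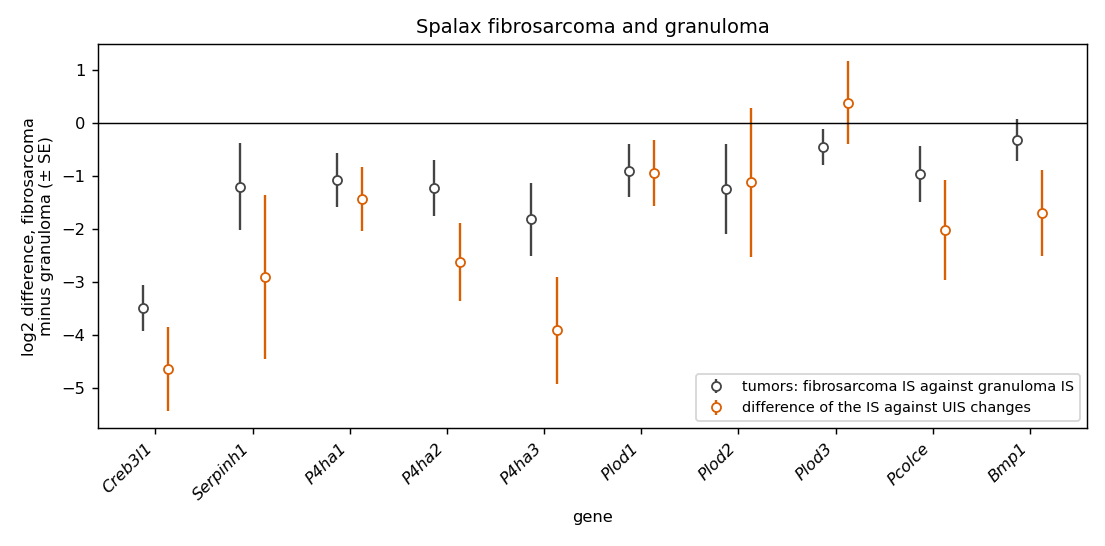
Log2 difference of fibrosarcoma minus granuloma (± SE) in Spalax for each member, between the tumors (grey) and between the changes from UIS to IS (orange). Creb3l1 lies lowest in both, at -3.49 and -4.64, and no point passed an adjusted p of 0.05 in limma.

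Tumors were next compared with the injected side of tolerant Spalax, which was exposed to 3MCA without growing a tumor. These tumor libraries are the same as above, and index type cannot be told apart from the groups. Of 10 members 8 were called higher in the 4 tumors, where 22.4% of 14578 genes were, and the median log2 fold change was 2.46 (all genes 0.06). Called genes that were higher went from 3264 of 6766 to 5595 of 7789 with total-read scaling. Libraries did not overlap for 6 members, against 19.2% of all genes. The largest rise was that of Plod2 with 3.49 (SE 0.57, adjusted p 0.00143). Creb3l1 (3.07, adjusted p 0.0567) and P4ha3 (2.34, adjusted p 0.0712) were not called. Without tolerant 2251 they were, Creb3l1 with 3.91 (adjusted p 0.0159) and P4ha3 with 3.11.

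Muscle without a tumor was compared last. Tolerant and control Spalax overlapped for every member, with log2 differences from -0.41 for Serpinh1 to 0.84 for P4ha3 and 0 members called (0% of 14020 genes higher, smallest adjusted p of any gene 0.218). Library 2251 was the highest tolerant library for 9 of the 10 members, P4ha2 being the exception, and P4ha3 differed by 0.07 without it. Its fibroblast sum of 83233 and macrophage sum of 15242 were also the highest of the muscle libraries, and their part in its member levels was not tested. UIS of tumor-bearing Spalax lay below control for 9 of 10 members, by up to 1.57 for Serpinh1 (median -0.48, all genes -0.03). Of the members 0 were called, and 0 of 13909 genes in either direction. The Serpinh1 difference was -0.72 without granuloma UIS 976. Against tolerant, UIS was lower for 9 of 10, by up to 1.82 for Creb3l1 (median -0.58, all genes -0.00). Here 0 members were called, and 1 of 14029 genes (0.00713%), which was higher. Without tolerant 2251 the Creb3l1 difference was -0.98. In mouse, UIS lay below control for 8 of 9 members tested, by up to 1.37 for Pcolce (median -0.57, all genes -0.02). There 0 members and 0 of 14792 genes were called in either direction. The shares of all genes lying lower are not given here. Leaving out library 2251 or granuloma UIS 976 also gave 0 calls among the members. DESeq2 and edgeR called 0 members in each of these comparisons, and the limma counts of members at an unadjusted p under 0.05 were 0, 1, 0 and 0, Creb3l1 in UIS against control being the 1 (limma p 0.0366, adjusted p 0.275). Over all genes tested, the shares at that level in either direction were 5.23%, 16.6%, 5.12% and 11.0%.

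The difference of IS from UIS in Spalax fibrosarcoma was finally set against that in mouse fibrosarcoma. This was an interaction over 12816 shared genes that passed the filter. Species cannot be told apart here from dose, time since injection, age and origin of the animals. By limma the interaction called 0 members, where 4.55% of genes were called in either direction. At an unadjusted p under 0.05 there were 0 members (22.7% of all genes), and edgeR and DESeq2 called 0. The median difference of the members was 0.06. The largest was that of P4ha3 at -3.53 (SE 1.97, adjusted p 0.326), and 8 of the other 9 lay between -0.85 and 0.53, with P4ha2 at 0.95. The wide errors leave differences of several-fold undetectable with 2 and 3 animals.

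The genes with profiles most like each member over the 16 Spalax and 9 mouse libraries were found among 11627 shared genes, by the root mean square difference of centred log2 values, taking the larger of both species. For Creb3l1 they were Sparc (0.77), Plat (0.81) and Olfml3 (0.85), and for Serpinh1 Efemp2 (0.51), Dap (0.64) and Emilin1 (0.66). P4ha1 lay nearest to Kdelr2 (0.37), Calr (0.40) and Arf4 (0.41). P4ha2 had no neighbor as near, with Siah2 (0.57), Fkbp9 (0.64) and Jam3 (0.65), and P4ha3 the least near, with Arhgap22 (0.84), Gpr176 (0.92) and Myof (0.97). For Plod1 they were Zdhhc9 (0.34), Gmppb (0.36) and Wrb (0.36), and for Plod3 Txndc11 (0.39), Zbtb21 (0.40) and Camsap2 (0.42). For Pcolce they were Loxl1 (0.54), Fam114a1 (0.55) and Cmtm3 (0.55), and for Bmp1 Tyro3 (0.45), Vim (0.46) and Dlg4 (0.47). No member was among the 3 nearest genes of another. The profiles run over tumor and muscle libraries together, and the part of the difference between these in the likeness was not tested.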

How the data were processed

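Per the methods of the study, the authors trimmed single-end reads with Trimmomatic, aligned them with TopHat2 (the submitters' processing notes give TopHat 1.4.1) to the Spalax genome or to mouse GRCm38, and counted reads per gene with HTSeq. The deposited values are a signal: in 1 table per species, the authors scaled each library's read counts by a single size factor. Whole reads were recovered by division, and 100% of values came out whole within 0.01 of a read. In 2387 Spalax rows a comma in the gene name was read as t, and values were taken from the line end.

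Since the values are not raw counts, limma 3.58.1 (lmFit, eBayes with trend) in R 4.3.3 was run on log2(value + 1), so fold changes of low genes are understated. A gene was tested if it reached 10 in a number of libraries equal to the size of the smaller group, and p-values were adjusted over all genes tested. Alternatives were edgeR 4.0.16 (quasi-likelihood) and DESeq2 1.42.0 (Wald), both on recovered reads, a pseudocount of 0.1 or 10, no filter, scaling by total reads, 1 model over all libraries, the animal as a block, and leaving out each library. Fits were run on simulated counts for the granuloma and mouse tumor comparisons, with a fixed dispersion and independent libraries. That run does not show how they behave at the spread of these libraries. Ratios were compared by exact permutation of libraries, which ignores the pairing within animals, and adjusted over 7 per species. Coordinates and exon lengths are from GENCODE vM21 (GRCm38).

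Same-animal IS and UIS libraries are pairs by design. The correlation of their deviations from the group means was 0.01 in granuloma, 0 in Spalax fibrosarcoma and 0.05 to 0.18 in mouse. No replicates were copies (chi-square per degree of freedom of at least 45 over 25 pairs). Each library is 1 tissue sample of 1 animal. The main fits and the ratio tests took IS and UIS libraries of the same animal as independent, and only the block setting used the pairs. Reads carry no molecular identifiers, so limits from counts cover counting error only.

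The members and gene lists were chosen with earlier results of these data known. All members are named. Of each list the gene with the largest called rise and fall is named, and of the profiles the 3 nearest genes per member, except for Plod2, where they are not reported here. Single differences of all members are given for tumor against UIS. In the other comparisons they are given for named members only, with ranges or medians for the rest. A difference not printed there may still be called or at least 1 on the log2 scale.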

Additional observations from a re-analysis of the deposited data

Results flagged for a closer look

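Each member was examined for a library far from the others of its group in Spalax control, tolerant, the 4 tumor libraries and the 4 UIS libraries, 40 cases in all, of which chance flags about 5%, and 3 were found. In the UIS libraries of tumor-bearing Spalax, granuloma UIS 976 was lowest for Serpinh1 at 177 normalized counts, where the other 3 were at 1769 to 1991. The same library was highest for Plod3 at 2837, where the others were at 803 to 849. Among the Spalax tumors, fibrosarcoma IS 2230 was lowest for Bmp1 at 1778, where the others were at 2925 to 3208. Sums of the myofiber and fibroblast markers in granuloma UIS 976 were 995218 and 12509, the lowest of the 4 UIS libraries, and their part in its Serpinh1 and Plod3 values was not tested.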

How the results depend on the processing

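In the tumor against UIS comparisons and tumor against tolerant, the counts of members called stayed within 1.5 times the main count under every other tool, pseudocount, filter, scaling and model run. With the animal as a replicate block, 9, 9 and 8 members were called in granuloma, Spalax fibrosarcoma and mouse, and Serpinh1 in Spalax fibrosarcoma was the only member that the block added. Leaving out 1 library gave 0 to 7 members in granuloma, 0 to 10 in Spalax fibrosarcoma, 4 to 9 in mouse, 0 to 7 between the UIS of fibrosarcoma and granuloma, and 0 to 1 in the species interaction (P4ha3 without mouse UIS 1019). A group left with 1 library was assumed to vary like the other. DESeq2 called 1 member, Creb3l1, between fibrosarcoma and granuloma IS and 1 in the interaction of both, where limma called 0. Over all genes, calls differed more: 3581 in granuloma became 5383 with DESeq2 and 6314 with 1 model over all libraries, and 583 in the species interaction became 1900, 1552 and, with the block, 97. Where limma called 0 or 1 gene, DESeq2 called 153 and 129 between fibrosarcoma and granuloma (IS and UIS), 88 in their interaction, and 516, 60, 38 and 342 in UIS against control, tolerant against control, UIS against tolerant and mouse UIS against control. In these, 1 model over all libraries called 19 between the tumors, and the other settings that kept every library called 0 to 3. Among ratios and members called or differing by at least 1 on the log2 scale, directions turned only without single libraries: Serpinh1 between fibrosarcoma and granuloma UIS ranged from -0.01 to 3.40, Plod2 in the granuloma interaction from -2.53 to 0.29, the ratio of Plod3 to Plod1 in Spalax from -0.70 to 0.11 and that of Pcolce to Bmp1 from -0.35 to 0.37. None of these passed in the main test, and the cause was not tested. DESeq2 gave no adjusted p for Bmp1 against tolerant. Depth limits P4ha3 and Creb3l1 in muscle, which rest on 0 to 36 and 9 to 109 reads outside tolerant 2251.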

Other observations

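The pair of Spalax fibrosarcomas differed from each other in most members. The granulomas of animals 600 and 976 did so in some, with Serpinh1 at 27806 and 13427 and P4ha1 at 12026 and 5246. P4ha2 was at 14723 and 6547 there, and Plod1 at 6713 and 2786. They lay closer in Pcolce (8510.0 and 8468) and Bmp1 (2925 and 3020.4). Of the fibrosarcomas, the values were as follows. Female 2240 held more P4ha1 (4396 against 3217 normalized counts), P4ha2 (5068 against 3434), Plod3 (3037 against 2065), Bmp1 (3208 against 1778), Plod2 (16233 against 3257), Serpinh1 (16903 against 4190.0), P4ha3 (106 against 37.2) and Creb3l1 (267 against 142) than male 2230. Male 2230 held more Pcolce (6899.9 against 2769), more fibrillar collagen (392255 against 119690), more fibroblast marker signal (79606 against 18237) and more macrophage marker signal (37830 against 10683). Plod1 was at 2278 and 2359.7. With 1 library each there is no replicate check of these differences. For the fibrosarcomas, sex and the time since injection cannot be told apart from the animal.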
